A study of Rattus norvegicus with 8 samples.

Results

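Choroid plexus genes were examined in the medial thalamus of rats conditioned with tracheal occlusions, short closures of the windpipe, and of surgical control rats. The 8 members, Ttr, Clic6, Kcne2, Folr1, Kl, Aqp1, Otx2 and Foxj1, were chosen by gene name, and every non-control probe that carried such a name was taken. This gave 9 probes of 41012 on the array, with a pair of probes for Otx2 and 1 probe for each other gene. Of these, 8 probes of 7 genes were among the 27154 probes kept for testing, since their signal was marked by the scanner software as well above background on 4 arrays or more. The Kl probe was so marked on 0 arrays and was not tested.

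The animals were 8 conscious male Sprague-Dawley rats, 4 in the occlusion group and 4 in the control group, with 1 array each. Occlusion animals received trials in which the airway was closed for 3 to 10 breaths, each with about 30 s of recovery, in daily sessions over 10 days. Control animals had the surgery and the sessions but no occlusions, and all were killed by anaesthetic overdose within 10 min of the final session. For each array 1 µg of total RNA was used, with Cy3 as the label, and the Agilent whole-rat oligonucleotide arrays were read in 1 channel.

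The choroid plexus is the epithelial tissue that hangs in the brain ventricles and secretes cerebrospinal fluid. Its cells pump ions and water into the ventricle, take up folate and hormones from the blood, and release transthyretin, which carries thyroid hormone and retinol in the fluid. It lies next to the ependyma, the ciliated lining of the ventricles, and the third ventricle borders the medial thalamus. Dissected blocks of this region can therefore hold some of either tissue. In such bulk RNA, fewer cells of a type and less RNA per cell cannot be told apart.

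The probes below are those of Ttr and of the 3 transport genes with a low unadjusted p, which carry the contrast described further on, with the dimmer Otx2 probe as an example from the transcription factors. Each is 60 bases long and is printed in the direction given in the array files. Positions are on rat assembly rn3, as the authors' files give them. The exon or untranslated region under each probe is not stated, as no rn3 annotation was used here. No other probe on the array shared a run of 20 bases with any of the 9 probes.
Ttr (chr18:12434403-12434462, plus strand): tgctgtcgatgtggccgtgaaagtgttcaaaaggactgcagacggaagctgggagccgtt
Clic6 (chr11:32615187-32615246, plus strand): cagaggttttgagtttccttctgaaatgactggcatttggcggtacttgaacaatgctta
Kcne2 (chr11:32345809-32345868, plus strand): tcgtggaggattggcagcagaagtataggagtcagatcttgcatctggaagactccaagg
Folr1 (chr1:159395122-159395181, minus strand): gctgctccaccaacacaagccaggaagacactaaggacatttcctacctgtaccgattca
Otx2 (chr15:24639817-24639876, minus strand): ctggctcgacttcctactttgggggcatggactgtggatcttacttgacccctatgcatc

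The remaining probes lie at chr12:3732725-3732784 on the minus strand for Kl, at chr4:84396592-84396651 on the plus strand for Aqp1 and at chr15:24639154-24639213 on the minus strand for the brighter Otx2 probe. The files give no position for the Foxj1 probe. Clic6 and Kcne2 lie on the same chromosome. Aqp1 was printed in 10 spots, of which 8 to 10 per array entered its value, and every other member in 1 spot.

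Levels are log2 processed signal minus the 75th percentile of the array, so 0 is the signal of the spot at that percentile. A difference of 1 is a doubling. The 75th percentile lay between 1439 and 2216 signal units, the share of spots well above background was 65.0% to 71.6%, and correlations between arrays ran from 0.953 to 0.986. Arrays were scanned as 2 slides, each with 2 arrays of either group, so every difference is also given within each slide. Slide 1 held occlusion 1, occlusion 3, control 1 and control 4, and slide 2 held the others. The number of arrays limits the precision. No member was saturated on any array.

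Ttr was the only measured member with a higher mean level on occlusion arrays. The other 6 measured genes had lower means there, and none of the 7 passed the test over all probes. With limma, 0 of 27154 probes (0%) had an adjusted p under 0.05, and the smallest adjusted p was 0.403. At an unadjusted p under 0.05 there were 3010 probes (11.1%), of which 1759 (6.48%) were higher and 1251 (4.61%) lower. Of the 7 measured members 5 were below that unadjusted p, Ttr as higher and Clic6, Kcne2, Folr1 and Foxj1 as lower. Leaving out 1 array at a time moved the count of lower members at that p between 2 and 5. It was 2 without occlusion 1, occlusion 4, control 1, control 2 or control 3.

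Ttr encodes transthyretin, the main protein that the choroid plexus secretes. Before scaling, its processed signal read 2964, 4582, 12194 and 4700 on occlusion arrays 1 to 4, against 3326, 2588, 1748 and 487 on control arrays 1 to 4. After scaling, its level was 0.87, 1.54, 3.08 and 1.08 on occlusion arrays 1 to 4, against 0.84, 0.55, -0.13 and -2.003 on control arrays 1 to 4. The scaled groups did not overlap, although occlusion 1 and control 1, both on slide 1, lay close together. The unscaled signals of that pair stood the other way round. Occlusion 3 was the highest array and control 4 the lowest, and both were on slide 1.

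The mean Ttr level was 1.64 ± 0.998 on occlusion arrays and -0.19 ± 1.28 on control arrays (SD, n = 4 each). The difference was 1.83 (SE 0.69), a 3.56-fold higher signal, with a 95% interval from 0.24 to 3.42. It did not pass limma's test (adjusted p = 0.415, unadjusted p = 0.0287). Higher levels without overlap were found for 1058 of all kept probes (3.9%), and 10 kept probes (0.0368%), Ttr included, had a difference at least as high as that of Ttr. The SD of Ttr over the 8 arrays was 1.44, against a median SD of 0.27 over all kept probes. Within slide 1 the difference was 2.56 and within slide 2 it was 1.105. With the slide as a block, limma's adjusted p was 0.322. Leaving out 1 array at a time gave differences between 1.23 without control 4 and 2.17 without control 1.

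**Figure D1:**
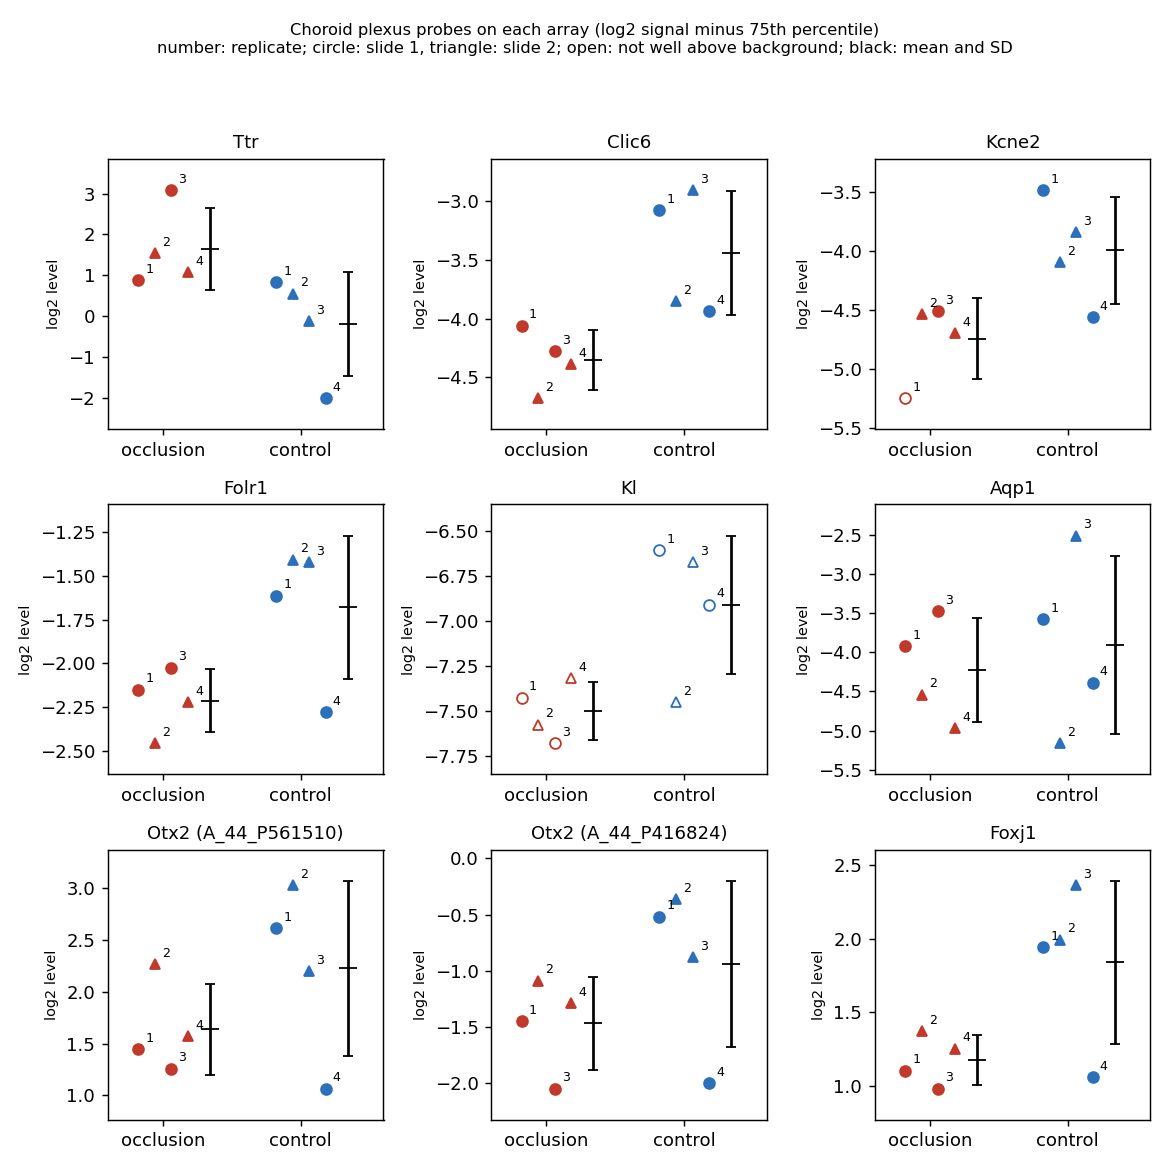
Level of each member probe (y axis, log2 processed signal minus the array's 75th percentile) on the occlusion arrays and the control arrays, with the replicate number beside each point, circles for slide 1, triangles for slide 2, open symbols where the probe was not well above background, and the mean and SD (n = 4) in black. Ttr lies between 0.87 and 3.08 on occlusion arrays, above all control arrays, while Clic6 lies between -4.67 and -4.06, below all control arrays.

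Clic6, Kcne2, Folr1 and Aqp1 serve transport across the epithelium. Clic6 encodes a protein of the chloride intracellular channel family. Its level was -4.06, -4.67, -4.27 and -4.39 on occlusion arrays 1 to 4, against -3.07, -3.85, -2.90 and -3.93 on control arrays 1 to 4. The groups did not overlap, with controls 1 and 3 highest and occlusion 2 lowest. The means were -4.35 ± 0.26 on occlusion arrays and -3.44 ± 0.53 on control arrays (SD, n = 4 each). The difference of -0.91 (SE 0.26, 95% interval from -1.51 to -0.31), a 1.88-fold lower signal, did not pass limma's test (adjusted p = 0.403, unadjusted p = 0.0082). It was -0.66 within slide 1 and -1.15 within slide 2, and -0.47 with normexp background correction of the raw intensity in place of the processed intensity. Clic6 was the only member whose lower levels did not overlap, which held for 765 of all kept probes (2.82%).

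Kcne2 encodes an accessory subunit of potassium channels that sits, in mice, in the apical membrane of the choroid plexus epithelium. Its level was -5.25, -4.53, -4.51 and -4.69 on occlusion arrays 1 to 4, against -3.48, -4.10, -3.84 and -4.56 on control arrays 1 to 4. Control 4 lay within the occlusion range, and the probe was not well above background on occlusion 1. The difference was -0.75 (SE 0.26, 95% interval from -1.34 to -0.16), and limma's adjusted p was 0.403 (unadjusted p = 0.0181). Within slides it was -0.85 and -0.65, and with normexp it was -0.35.

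Folr1 encodes the folate receptor that moves folate across the choroid plexus into the fluid. Its level was -2.15, -2.45, -2.02 and -2.22 on occlusion arrays 1 to 4, against -1.61, -1.41, -1.42 and -2.28 on control arrays 1 to 4. Controls 1 to 3 lay above every occlusion array and control 4 lay among them. The difference was -0.53 (SE 0.21, 95% interval from -1.01 to -0.05), with an adjusted p of 0.426 in limma (unadjusted p = 0.0329). It was -0.14 within slide 1, which holds control 4, and -0.92 within slide 2.

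Aqp1 encodes the water channel of the apical membrane. Its level was -3.92, -4.54, -3.48 and -4.97 on occlusion arrays 1 to 4, against -3.57, -5.16, -2.51 and -4.39 on control arrays 1 to 4. Control arrays held both the highest and the lowest value, and the groups overlapped. The difference was -0.32 (SE 0.56, 95% interval from -1.61 to 0.97), with an adjusted p of 0.868 in limma. Its direction turned with the arrays used, at 0.28 within slide 1 and -0.92 within slide 2, and at 0.15 without control 3. The SD between spots of this probe on an array was 0.06 to 0.47, below the SD of 0.66 between occlusion arrays and of 1.13 between control arrays.

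Kl encodes klotho, a membrane protein and co-receptor for a fibroblast growth factor. Its probe read -7.43, -7.58, -7.68 and -7.32 on occlusion arrays 1 to 4, against -6.60, -7.45, -6.67 and -6.91 on control arrays 1 to 4. As its signal never stood well above background, no fold is given.

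Otx2 and Foxj1 are transcription factors. Otx2 is a homeobox factor that is needed, in mice, to form and maintain the choroid plexus. Its brighter probe read 1.45, 2.27, 1.26 and 1.57 on occlusion arrays 1 to 4, against 2.61, 3.03, 2.20 and 1.07 on control arrays 1 to 4. Its dimmer probe, printed above, read -1.45, -1.09, -2.05 and -1.29 on occlusion arrays 1 to 4, against -0.52, -0.36, -0.88 and -2.0 on control arrays 1 to 4. In both, controls 1 and 2 were highest and control 4 was at or near the lowest, so the groups overlapped. The 2 probes tracked each other over the 8 arrays (r = 0.960).

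The Otx2 differences were -0.59 (SE 0.41, 95% interval from -1.54 to 0.36) and -0.53 (SE 0.37, 95% interval from -1.38 to 0.32). Limma's adjusted p was 0.613 for the brighter and 0.611 for the dimmer probe. Without control 4 the differences were -0.98 and -0.88. Within slides they were -0.49 and -0.69 for the brighter probe, and -0.49 and -0.57 for the dimmer one.

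Foxj1 is the factor that switches on the genes of motile cilia, and it is expressed in ependyma as well as choroid plexus. Its level was 1.104, 1.37, 0.98 and 1.25 on occlusion arrays 1 to 4, against 1.94, 1.99, 2.36 and 1.06 on control arrays 1 to 4. Controls 1 to 3 lay above every occlusion array and control 4 lay among them. The means were 1.18 ± 0.17 on occlusion arrays and 1.84 ± 0.55 on control arrays (SD, n = 4 each), a difference of -0.66 (SE 0.26, 95% interval from -1.26 to -0.065). It did not pass limma's test (adjusted p = 0.426, unadjusted p = 0.0337), and was -0.46 within slide 1 and -0.865 within slide 2.

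**Figure D2:**
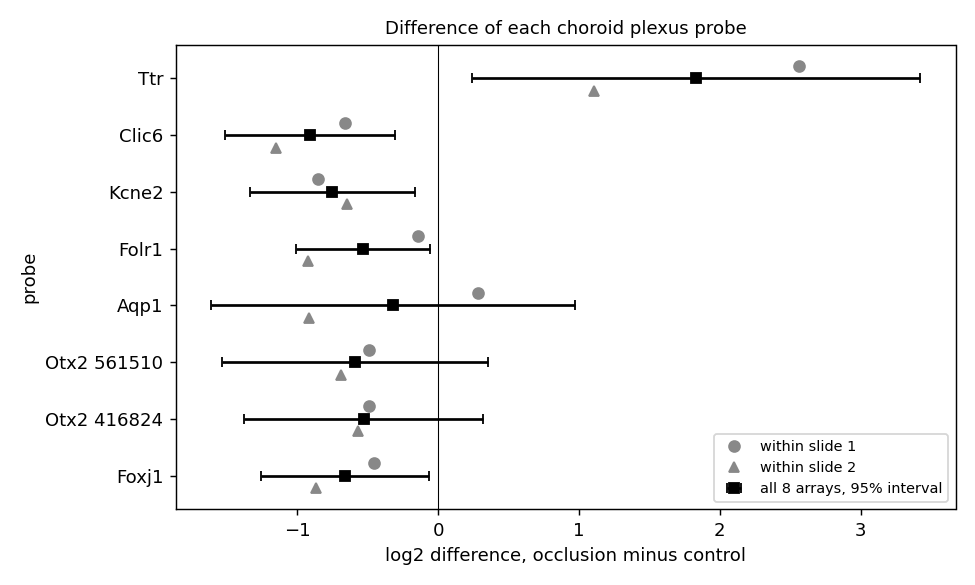
Difference in level of each measured member probe (x axis, log2, occlusion minus control), with squares and bars for all 8 arrays and their 95% interval, and grey circles and triangles for the difference within slide 1 and within slide 2. The Ttr difference is 1.83, the other probes lie between -0.91 and -0.32, and Aqp1 has opposite signs on the 2 slides.

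Control 4 was the lowest control array for Ttr, Clic6, Kcne2, Folr1, both Otx2 probes and Foxj1. Without it, the difference of Ttr was smaller at 1.23, while those of Clic6, Kcne2, Folr1 and Foxj1 were larger at -1.07, -0.94, -0.73 and -0.92. Over the members the median difference was -0.59, against 0.02 over all kept probes, where the median size of a difference was 0.17. A difference below 0 was found for 6 of the 7 measured members and for 46.4% of all kept probes, and a difference above 0 for 1 member and for 53.6% of all kept probes.

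Whether Ttr follows the other members was tested on the log2 difference between Ttr and each other member on the same array. The group difference of Ttr exceeded that of Clic6 by 2.74, of Kcne2 by 2.58, of Foxj1 by 2.49, of Otx2 by 2.42, of Folr1 by 2.36 and of Aqp1 by 2.15. In the two-sided exact permutation test over 70 assignments, p was 0.0286 for 5 of the 6 genes (adjusted p = 0.0343) and 0.0571 for Aqp1 (adjusted p = 0.0571). The value 0.0286 is the smallest that this test can give. The same value or less was reached by 10382 of 26053 kept probes (39.8%) when set against Ttr in that way. All 6 tests use the same Ttr values, whose difference was known when the genes were chosen, so they are not independent of each other or of it.

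Within slide 1 the excess of Ttr ranged from 2.28 over Aqp1 to 3.42 over Kcne2. Within slide 2 it ranged from 1.75 over Kcne2 to 2.26 over Clic6. When arrays were permuted within slides, the smallest p the test can give was 0.0556, and all 6 genes had an adjusted p of 0.0556. Without occlusion 3 the excess over all members but Aqp1 was between 1.82 and 2.29, and none of these passed after adjustment. The excess over Clic6 also did not pass without occlusion 2 (2.67) or control 4 (2.30).

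Over the 8 arrays, no correlation of Ttr with another member passed its test after adjustment. Pearson's r with Ttr was -0.38 for Clic6, -0.20 for Foxj1, -0.11 for Kcne2, -0.08 for Folr1, 0.06 for Aqp1 and 0.07 for Otx2. In exact permutation tests over the 6 pairs, p ran from 0.358 for Clic6 to 0.904 for Aqp1, and the adjusted p was 0.904 for every pair. Spearman's rho was -0.76 for Clic6 (exact permutation p = 0.0368, adjusted p = 0.221), -0.40 for Foxj1, -0.31 for Folr1, -0.24 for Kcne2, -0.05 for Otx2 and -0.02 for Aqp1. The median r of all kept probes with Ttr was 0.06, with 90% of them between -0.594 and 0.620.

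The values of r depended on a pair of arrays. Occlusion 3 and control 4 were the arrays farthest from the median of Ttr. Without them r was -0.82 for Clic6, -0.85 for Folr1, -0.79 for Foxj1, -0.63 for Aqp1, -0.45 for Kcne2 and -0.22 for Otx2. Within slide 2, which holds neither array, r over 4 arrays was between -0.99 for Clic6 and -0.25 for Otx2. Within slide 1 it was between -0.22 for Clic6 and 0.92 for Aqp1.

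With the group means removed from all 8 arrays, the sign was positive for all 6 genes, from 0.26 for Aqp1 and 0.33 for Clic6 to 0.74 for Folr1 and 0.78 for Kcne2. Without control 4 it was -0.62 for Foxj1, -0.16 for Clic6, -0.08 for Otx2, 0.12 for Aqp1, 0.26 for Folr1 and 0.575 for Kcne2. Control 4 was low for Ttr and for most other members alike. Over all kept probes the median of this r was 0.04, with 90% between -0.639 and 0.657.

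**Figure D3:**
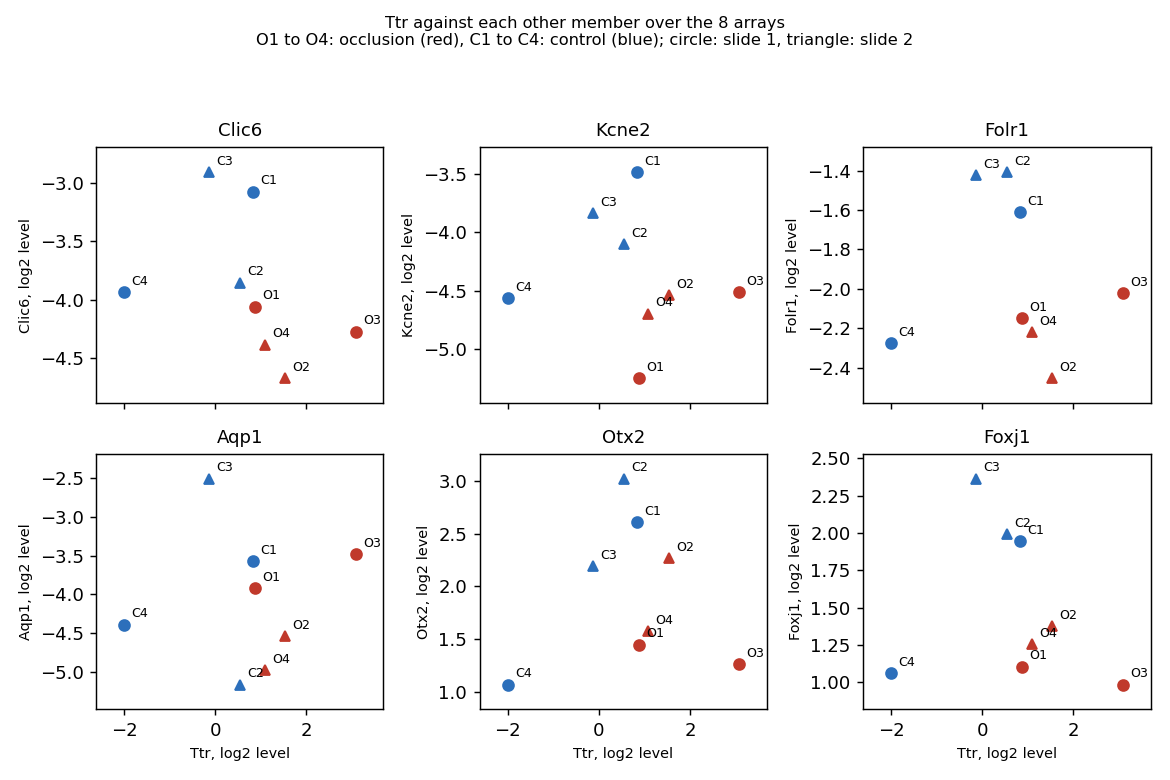
Level of each other member (y axis) against the level of Ttr (x axis), both as log2 processed signal minus the array's 75th percentile, on occlusion arrays (O1 to O4, red) and control arrays (C1 to C4, blue), with circles for slide 1 and triangles for slide 2. O3 at a Ttr level of 3.08 and C4 at -2.003 lie apart from the other 6 arrays.

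Correlations among the other members were mostly positive. Of the 15 pairs among Clic6, Kcne2, Folr1, Aqp1, Otx2 and Foxj1, 14 had a positive r, and the median was 0.668. The highest was 0.854 between Folr1 and Foxj1 (exact permutation p = 0.0152, adjusted p = 0.0802), with a rho of 0.571 (exact permutation p = 0.151) and an r of 0.631 without the 2 arrays farthest from the median of Folr1. Left out in the same way, the 2 farthest arrays took r to 0.128 for Clic6 with Kcne2, to 0.256 for Clic6 with Foxj1 and to -0.09 for Clic6 with Aqp1. The same step raised r to 0.904 for Kcne2 with Folr1 and to 0.931 for Kcne2 with Foxj1. Over the 15 pairs the median was then 0.531 and 14 were positive, so several of these relations, but not all, rest on a pair of arrays. The lowest r over the 8 arrays was -0.11 between Aqp1 and Otx2. None of the 15 passed after adjustment, and 7 had an unadjusted exact permutation p under 0.05. With the group means removed, 14 of the 15 were positive, with a median of 0.527. All 6 genes had lower means on occlusion arrays, which enters the values with the group means kept. No share over pairs of all kept probes was computed, so these counts have no background beside them. For Clic6 alone, r with 90% of all kept probes lay between -0.707 and 0.698.

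A longer list of 40 other genes used as choroid plexus markers, Ttr and the other members left out, was split. Of these, 37 were on the array and 26 were kept, of which 17 were lower and 9 higher on occlusion arrays, with a median difference of -0.08. With the arrays scaled to their medians the split was 13 lower and 13 higher, and with quantile normalisation it was 14 lower and 12 higher. A difference below 0 was found for 46.4% of all kept probes. In limma 0 passed, and 4 were lower and 0 higher at an unadjusted p under 0.05, against 4.61% and 6.48% of all kept probes. The probes of Slc4a5, Cldn2, Cldn1, Car12, Tmem72, Stra6 and Lbp, 7 in all, never stood well above background. Some genes typical of the tissue, Kl among them, were thus not detected, although Ttr was on all 8 arrays.

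The 4 lower genes at that p were Msx1, Krt18, Krt8 and Car2. Msx1, a homeobox factor of the dorsal midline, had a level of -0.33, 0.53, -0.17 and 0.08 on occlusion arrays 1 to 4, against 1.197, 1.31, 1.31 and 0.24 on control arrays 1 to 4. Controls 1 to 3 lay above every occlusion array and control 4 lay among them, as for Folr1 and Foxj1. Its difference was -0.99 (SE 0.29), with an adjusted p of 0.403 in limma. The keratins Krt8 and Krt18, filament proteins of simple epithelia, differed by -0.64 (SE 0.23) and -0.96 (SE 0.40), and Car2, a carbonic anhydrase that is also abundant in oligodendrocytes, by -0.50 (SE 0.20). The highest by limma's moderated statistic, by which list genes are named, were Slc22a8, an organic anion transporter, at 0.29 (SE 0.16), and Rdh5, a retinol dehydrogenase, at 0.64 (SE 0.54). Rdh5 was well above background on only 2 of the 4 control arrays.

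A few choroid plexus genes varied widely between arrays of the same group, and they were chosen for description after their values were seen. Kcnj13, a potassium channel of the apical membrane, read -5.61, -3.45, -2.63 and -3.80 on occlusion arrays 1 to 4, against -2.56, -2.36, -5.01 and -7.25 on control arrays 1 to 4. Sostdc1, a secreted inhibitor of bone morphogenetic protein and Wnt signals, read -0.74, 0.13, -0.74 and -0.54 on occlusion arrays 1 to 4, against 0.33, 0.82, -2.33 and -1.70 on control arrays 1 to 4. Both were high on controls 1 and 2 and low on controls 3 and 4, which is the side of the control group on which Ttr was also high and low. Their group differences were 0.43 (SE 1.12) and 0.24 (SE 0.68). The r with Ttr over the 8 arrays was 0.75 for Kcnj13 and 0.43 for Sostdc1, and with the group means removed it was 0.90 and 0.48. The Kcnj13 probe was not well above background on occlusion 1 and control 4, and control 4 is also the lowest array for Ttr, so its r and its difference rest partly on signal at background.

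Genes of the ependyma and of motile cilia mostly had lower means on occlusion arrays. Of 30 listed genes 20 were on the array and 19 were kept. Of these, 18 were lower and 1 higher on occlusion arrays, with a median difference of -0.58, and 10 were lower at an unadjusted p under 0.05, against 4.61% of all kept probes. None passed limma's test (smallest adjusted p = 0.403). The count of 10 was 5 without occlusion 3, 14 without control 4 and 2 within slide 1 alone. It was 7 with the replicate number as a block. The list mean was between -2.10 and -1.78 on occlusion arrays, against -1.84 to -0.88 on control arrays, and control 4 overlapped the occlusion range. Control 3 was the highest of the 8 arrays for 18 of the 19 genes, as it was for Clic6, Aqp1 and Foxj1.

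Rsph1, a part of the radial spokes of the cilium, read -1.23, -0.85, -1.23 and -1.02 on occlusion arrays 1 to 4, against -0.30, -0.34, 0.15 and -0.62 on control arrays 1 to 4. The groups did not overlap, and the difference was -0.81 (SE 0.18). Dnai1, a dynein intermediate chain, and Spata18, also known from mitochondrial quality control, were the other 2 genes without overlap, which 2.82% of all kept probes showed in this direction, at -0.51 (SE 0.17) and -0.72 (SE 0.26). Tekt4, a filament protein of ciliary microtubules, differed by -0.60 (SE 0.19). The highest by that statistic were Mia at 0.04 (SE 0.20) and Ccdc39, an assembly factor of ciliary dyneins, at -0.16 (SE 0.20).

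**Figure D4:**
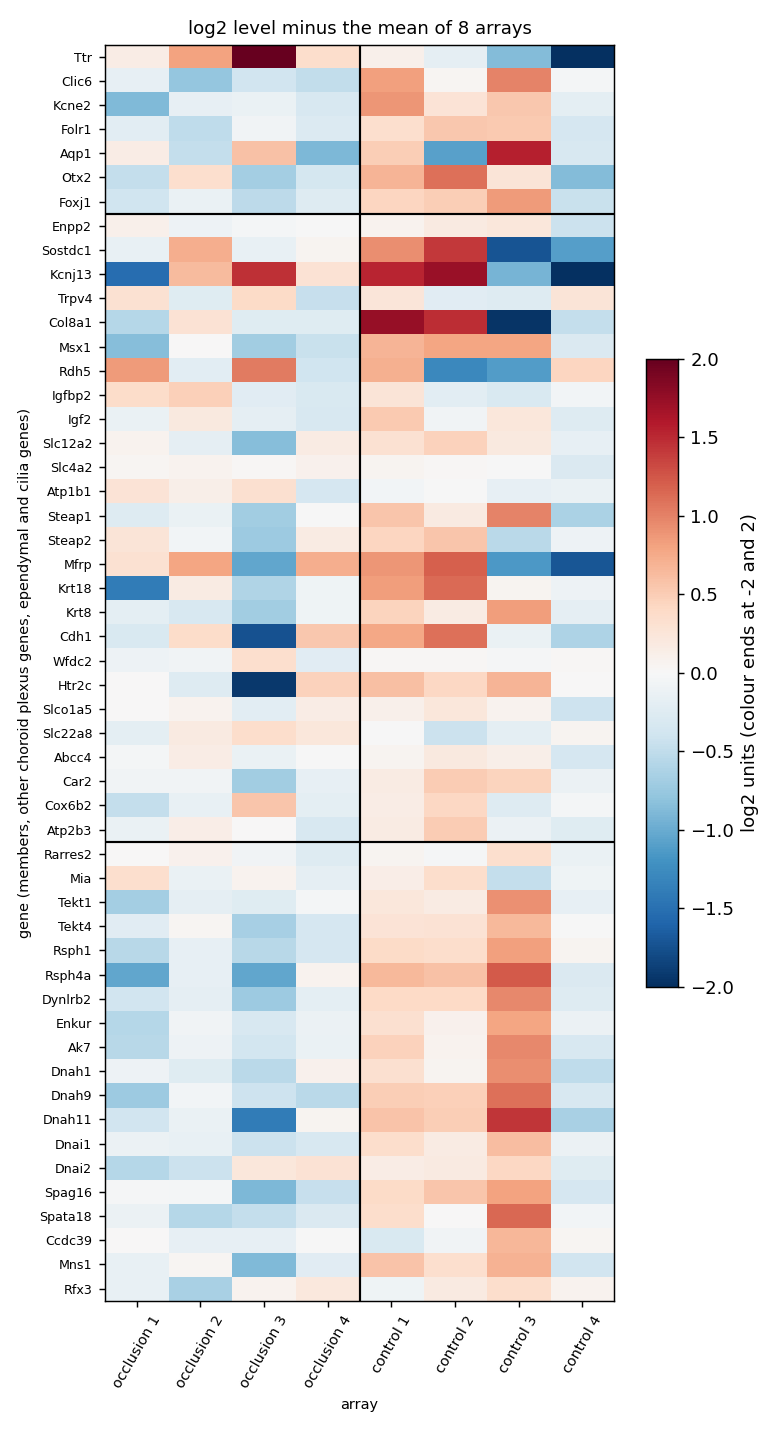
Level of each measured gene on each array minus its mean over the 8 arrays (log2 units, red higher, blue lower, colour ends at -2 and 2), for the members, the other choroid plexus genes and the ependymal and cilia genes, with occlusion arrays on the left. Ttr is highest on occlusion 3 and lowest on control 4, and most cilia genes are highest on control 3.

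Among the 19 ependymal and cilia genes, r with Foxj1 over the 8 arrays was above 0 for 18, with a median of 0.900, and r with Clic6 was above 0 for 18, with a median of 0.733. With Ttr it was above 0 for 2, with a median of -0.32. With the group means removed it was above 0 with Ttr for 17, with a median of 0.22. With Foxj1 and Clic6 it was computed only with the group means kept. Those 2 genes and most of the list had lower means on occlusion arrays, and Ttr a higher one, which enters such values. Over all kept probes r with Clic6 had a median of -0.01, with 90% between -0.707 and 0.698. No such range was computed for Foxj1. The 26 other choroid plexus genes were spread, with r above 0 for 17 with Ttr (median 0.22) and for 16 with Clic6 (median 0.107). After removal of the group means, their r with Ttr was above 0 for 21 of 26, with a median of 0.40. Over all kept probes that r was above 0 for 54.0%, with a median of 0.04. All genes on an array share its scaling and its tissue makeup, which was not measured, so these values only describe the 8 arrays. The part of ependymal tissue in the levels of Clic6, Foxj1 and the other members was not tested.

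**Figure D5:**
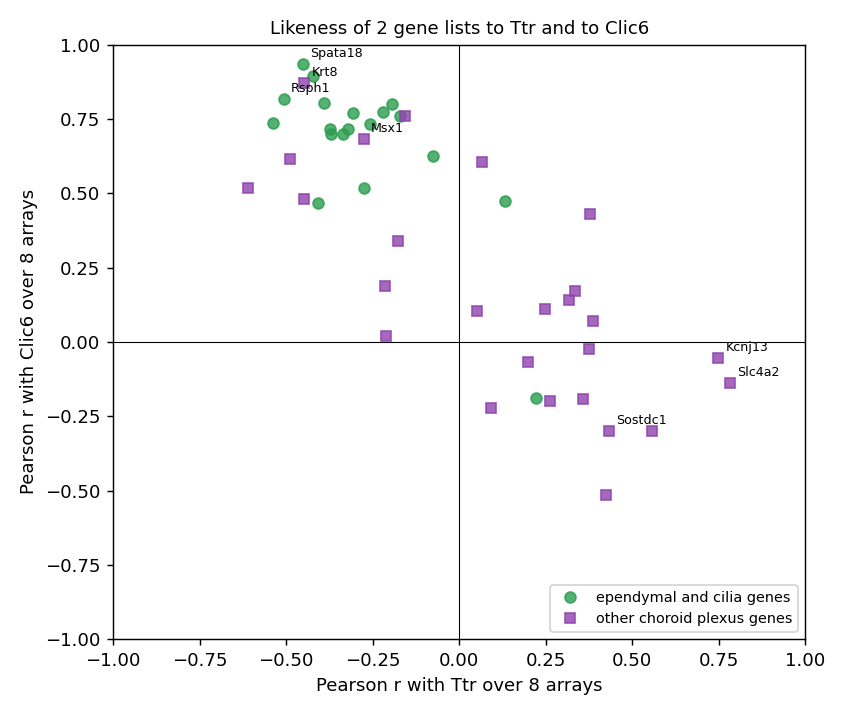
Pearson r with Clic6 (y axis) against Pearson r with Ttr (x axis) over the 8 arrays, for each measured ependymal and cilia gene (green circles) and each other choroid plexus gene (purple squares). Most cilia genes lie at the upper left, while the choroid plexus genes run from Krt8 at the upper left to Slc4a2 and Kcnj13 at the right.

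Genes of the tissues next to the medial thalamus were read for comparison. Thalamic relay genes, markers of the projection neurons of the thalamus, mostly had higher means. Prox1, a homeobox factor, passed the filter on dim probes only through the occlusion arrays and is left out of these counts. Of the other 13 genes, 12 were higher on occlusion arrays, with a median difference of 0.62, and 6 were higher at an unadjusted p under 0.05. Over all kept probes, 53.6% had a difference above 0 and 6.48% were higher at that p. A list mean was taken over the 13 relay genes with a value on every array, without the exclusion made for the counts. It was between 0.06 and 0.50 on occlusion arrays, against -1.18 to 0.15 on control arrays. Ntng1, a netrin of thalamic axons, was higher by 1.29 (SE 0.34), and Prox1 by at least 2.22-fold, a bound, since its probe was well above background on 0 of the 4 control arrays. Both had an adjusted p of 0.403 in limma. The lowest by the moderated statistic were Pcdh10, a protocadherin, at 0.15 (SE 0.18), and Kcnk9, a potassium channel, at -0.08 (SE 0.25).

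Over the arrays, relay genes ran opposite to Foxj1 and Clic6. For r these genes were taken without the exclusion made for the counts, as for the list mean. Their r with Foxj1 was above 0 for 0 of 13 genes with a value on every array, with a median of -0.81, and with Clic6 for 1 of 13, with a median of -0.56. With Ttr it was above 0 for 11 of 13, but for 0 of 13 with the group means removed (median -0.48). With Foxj1 and Clic6 it was computed only with the group means kept. The part of tissue makeup in the members' differences was not tested.

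Habenula genes, of the small nuclei that lie against the third ventricle and the choroid plexus, varied widely within groups, with a list mean of -0.85, -0.15, -2.60 and -0.57 on occlusion arrays 1 to 4, against -0.08, 0.42, -3.10 and -1.97 on control arrays 1 to 4. Occlusion 3, control 3 and control 4 were low, and occlusion 3 and control 4 are also the highest and the lowest array for Ttr. The part of this tissue in the Ttr difference was not tested. Of 13 measured habenula genes, 8 were higher and 5 lower, with a median of 0.21. Tac3 was higher by 1.23 (SE 0.80), measured on only 2 arrays of each group, and Nhlh2 by 0.54 (SE 0.26), while Slc5a7 and Tac1 differed by -0.53 (SE 0.97) and -0.46 (SE 0.67). The Tac genes encode tachykinin peptides, Nhlh2 is a neuronal transcription factor and Slc5a7 is the choline transporter.

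Leptomeningeal genes, of the membranes around the brain, were lower for 12 of 15, with a median of -0.13. Dcn and Ogn, matrix proteoglycans, differed by -0.59 (SE 0.40) and -0.41 (SE 0.26), against 0.12 (SE 0.18) for Tbx18, a transcription factor, and 0.125 (SE 0.62) for the transporter Slc47a1. Endothelial genes were higher for 10 of 13, with a median of 0.146, with -0.16 (SE 0.14) for Tek and -0.13 (SE 0.12) for Slc2a1, against 0.19 (SE 0.11) for Cldn5 and 0.26 (SE 0.12) for Eng. Of the 3 blood cell genes, Hbb differed by 0.24 (SE 0.38), Alas2 by -0.09 (SE 0.43) and Slc4a1 by -0.16 (SE 0.64), with a median of -0.09. In these 3 lists and among the habenula genes, 0 genes had an unadjusted p under 0.05, against 11.1% of all kept probes. Of all kept probes, 46.4% had a difference below 0 and 53.6% a difference above 0.

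Genes that handle the cargo of transthyretin, thyroid hormone and retinol, were more often lower than higher. Of 30 listed 22 were measured, 17 lower and 5 higher on occlusion arrays, with a median of -0.15, and 3 were lower at an unadjusted p under 0.05. Over all kept probes, 46.4% had a difference below 0 and 4.61% were lower at that p. Crabp1, a retinoic acid binding protein, differed by -2.31 (SE 0.98). Dio3, the deiodinase that inactivates thyroid hormone, was named after its values were seen and differed by -1.91 (SE 0.82). The highest by the moderated statistic were Rxrg, a retinoid receptor, at 0.39 (SE 0.29), and Klf9, a target gene of thyroid hormone, at 0.08 (SE 0.14). None passed limma's test (smallest adjusted p = 0.404). The probes of Aldh1a3 and Stra6 never stood well above background.

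The genes most like Ttr and most like Clic6 over the 8 arrays were sought among 2465 named probes with an SD of at least 0.5. Those most like Ttr were Sslp1l1 (r = 0.947), Prb3, a proline-rich protein gene (0.877), Mrps2, of the mitochondrial ribosome (0.866), Nrip1, a nuclear receptor corepressor (0.811), and Or12j4, an olfactory receptor (0.807). Sslp1l1 read between -5.24 and -2.47 on occlusion arrays, against -7.52 to -4.57 on control arrays, where it was well above background on 2 of 4. Or12j4 was also well above background on only 2 of the 4 control arrays, and Mrps2 and Nrip1 on 3 of 4. No other member and no gene of the choroid plexus list was among these 5 genes most like Ttr. Folr1, with an SD of 0.41, was below the SD limit and could not be found in this search. Of the choroid plexus list, Slc4a2 and Kcnj13 had an r with Ttr of 0.78 and 0.75. Both lay above the range from -0.594 to 0.620 that held 90% of kept probes, while 9 of the 26 genes of that list had an r below 0. Those most like Clic6 were RT1-Db1, a class II histocompatibility chain (r = 0.966), Spata18 (0.934), C2h4orf17 (0.905), Hdc, which makes histamine (0.904), and Nr1i2, a xenobiotic receptor (0.891). Of these, Spata18 belongs to the list of ependymal and cilia genes.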

How the data were processed

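Per the file headers, Agilent Feature Extraction 9.5.1.1 wrote for each spot a processed intensity that is background-subtracted and detrended, with surrogate values for dim spots; the deposited value table repeats this intensity with fewer digits. Neither is normalised between arrays. The design text speaks of a reference design, but the scans have 1 channel and were analysed as 1-colour.

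Outlier and control spots were left out, log2 intensity was taken minus each array's 75th percentile over 43379 non-control spots, and spots of a probe were averaged. Of 41012 probes, 27154 were kept, well above background on at least 4 of 8 arrays and with at least 2 values per group. Of these, 1100 lacked a value on some array. Probes were named through RefSeq's rat gene table (GRCr8, names only): 10735 by accession, 5577 by symbol and 3730 by synonym, while 20970 were not matched. The member Clic6 is written in capitals in the files. Where a gene had several probes, the brightest stood for it in lists.

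Groups were compared with limma 3.58.1 in R 4.3.3 (lmFit and eBayes, two-sided), with Benjamini-Hochberg adjustment over the kept probes at 0.05. Per-array differences between Ttr and other genes, and correlations, were tested with exact permutation in Python 3.11.15. Named genes are the members, the 2 highest and 2 lowest of each list by moderated statistic, and the 5 most like Ttr and Clic6; others were chosen after their values were seen. Some genes that this rule takes are not reported here. Members and lists were chosen with earlier results of these data known. Alternatives were quantile and median scaling, normexp (offset 50), other filters, a trended robust variance, a slide block, single slides, a replicate block, the value table as deposited and leaving out each array. Labels number the replicates 1 to 4 in each group. Deviations of same-numbered arrays correlated at 0.355, 0.514, -0.071 and -0.293, so the numbers were not taken to pair them.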

Additional observations from a re-analysis of the deposited data

How the results depend on the processing

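Directions of Ttr, Clic6, Kcne2, Folr1, both Otx2 probes and Foxj1 held under every alternative run, and none of them passed limma's test in any. The count over all probes was 0 except with normexp, where it was 1 (adjusted p = 0.0478), a probe that is no member. With normexp the difference was -0.47 for Clic6 and -0.35 for Kcne2. Aqp1 turned to 0.28 on slide 1 alone, and ran from -0.74 without control 2 to 0.15 without control 3. With permutation within slides or with the replicate block, the excess of Ttr stayed 2.74 over Clic6, 2.58 over Kcne2, 2.36 over Folr1, 2.42 over Otx2 and 2.49 over Foxj1, and missed the threshold because the smallest possible p was 0.0556 and 0.125. Leaving out 1 array gave 2.29 to 3.12 for Clic6, 2.17 to 2.86 for Kcne2, 1.95 to 2.68 for Folr1, 1.70 to 2.81 for Aqp1, 1.82 to 2.67 for Otx2 and 1.95 to 2.80 for Foxj1. Aqp1 passed without control 2 (exact permutation, adjusted p = 0.0286), Clic6 failed without occlusion 2, occlusion 3 or control 4, and the other 4 failed without occlusion 3. The r with Ttr then ran from -0.54 to 0.06 for Folr1, which was 0.04 without occlusion 2, from -0.17 to 0.34 for Aqp1, which was -0.09 without control 4, from -0.77 to 0.10 for Foxj1 and from -0.56 to 0.47 for Otx2. With group means removed, it was -0.16, -0.082 and -0.62 for Clic6, Otx2 and Foxj1 without control 4, and 0.35, 0.94 and 0.79 without occlusion 3. The cause was not tested. In limma the replicate block gave an adjusted p of 0.455 for Ttr and changed no call at the adjusted threshold. At an unadjusted p under 0.05 it left 3 members, 2 other choroid plexus genes and 7 ependymal genes lower, against 4, 4 and 10. With quantile normalisation and median scaling, 14 and 13 of the 26 other choroid plexus genes were lower. The alternatives for group-removed correlations and list counts were added after seeing the data. Dim probes such as Kcne2 have the least signal over background.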
